A study of Bos taurus with 27 samples.

Results

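Tight junction and claudin genes of the rumen epithelium (RE) were followed through the fattening of Japanese Black beef cattle. The group holds 9 genes, 6 claudins (*CLDN1*, *CLDN3*, *CLDN4*, *CLDN5*, *CLDN7* and *CLDN23*), occludin (*OCLN*), junctional adhesion molecule A (*F11R*) and the scaffold gene *TJP1*. Its members were found by gene name on the array, which gave 9 probes, 1 for each gene, of 15008 probes with 14952 gene names. The same 9 castrated and ruminally fistulated cattle were biopsied at the early stage (14 months of age), the middle stage (21 months) and the late stage (29 months), with 1 array for each animal and stage. All stages were fed concentrate with rice straw, so that every group here was fed concentrate and stage, age and diet phase cannot be told apart. Each biopsy was RE scratched off with a biopsy punch in the ventral sac of the rumen, and no separation of cell types is described. Changes from early to middle, from middle to late and from early to late make up the first, second and total periods.

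A tight junction seals the space between neighboring epithelial cells. Claudins span the membrane and meet claudins of the next cell, where their mixture sets which ions and solutes pass, occludin spans the membrane beside them, and F11R takes part in junction assembly. *TJP1* encodes ZO-1, which ties the membrane proteins to actin. The RE is a stratified squamous epithelium, and its barrier keeps rumen contents from the blood while short-chain acids are absorbed.

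Probes of 60 bases read the members. Of the 9 target accessions, 7 were matched to the RefSeq gene table of assembly ARS-UCD2.0 and kept their symbols, and those of *CLDN23* and *TJP1* were not matched by accession. Since claudins are a family of related genes, each probe was searched for runs of at least 12 bases that it shares, on either strand, with the probe of any other gene name. The longest such run was of 12 to 14 bases in 8 members, and *CLDN5* had none. Probes were set only against other probes and not against the transcripts of other claudins, so cross-hybridization was not tested. The probes of *CLDN3*, whose fall was the largest with the scanner's background subtraction, of *CLDN7*, which did not pass the test in any comparison, and of *CLDN23*, the dimmest at the middle stage by calls above background, are shown 5′ to 3′ with that run in capitals.
CLDN3: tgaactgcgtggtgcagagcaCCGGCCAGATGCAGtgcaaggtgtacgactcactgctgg
CLDN7: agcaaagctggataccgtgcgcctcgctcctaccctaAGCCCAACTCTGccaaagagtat
CLDN23: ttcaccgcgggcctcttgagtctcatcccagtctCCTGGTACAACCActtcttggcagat
The run in *CLDN3* has 14 bases and is shared with the probe of *CAMKMT* on the opposite strand, that in *CLDN7* has 12 bases and is shared with *CKAP2*, and that in *CLDN23* has 13 bases. In the coordinates of the array design (build UMD3.1) the *CLDN3* probe lies at chr25:34018791-34018850 on the plus strand, the *CLDN7* probe at chr19:27602822-27602881 on the minus strand and the *CLDN23* probe at chr27:23857140-23857199 on the plus strand. The *CLDN4* probe lies at chr25:33988710-33988769 on the minus strand, 30081 bases from that of *CLDN3*, and *CLDN3* and *CLDN4* follow each other among the coding genes of the RefSeq table. The remaining 5 members lie on chromosomes 1, 3, 17, 20 and 21. The exon or UTR that holds each probe was not analysed here.

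Levels are log2 processed intensities relative to the median of the array, so that changes are relative to the other probes and no level of a probe is set against another's. The median intensity of the early arrays was 35.2 to 48.6 units, that of the middle arrays 8.22 to 28.7 and that of the late arrays 32.1 to 47.0. On the middle-stage arrays 48.8 to 71.6% of probes were well above background, against 68.5 to 78.2% on the others. Slides and stages were nearly the same split, since slide 2 alone, with the early array of animal 9 and 7 middle arrays, carried more than 1 stage. Markers of stratified epithelium were present, with 13 of 16 well above background on all early arrays, among them *KRT5*, *KRT14* and *TP63*, and with *KRT4* above it on no array. No member spot was saturated or marked as an outlier, and every member was well above background on all early and late arrays. At the middle stage this held for all 9 arrays in 6 members, for 8 arrays in *CLDN3*, 7 in *TJP1* and 5 in *CLDN23*.

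In the first period 6 members fell and 1 rose. With limma, 7 of 9 members were differentially expressed (Benjamini-Hochberg adjusted *P* below 0.05 over all probes), as were 66.5% of all probes, so that the number called was near the background. By direction 1 member was higher and 6 were lower at the middle stage, beside 45.3% of all probes called higher and 21.3% called lower. In the second period 6 of 9 members were called, 5 higher and 1 lower at the late stage, against 71.5% of all probes, 27% higher and 44.6% lower. The median log2 change over the members was −0.80 for the first and 0.68 for the second period, beside 0.32 and −0.27 over all probes. The all-probe values depend on the scaling. Under quantile normalization the medians of all probes were 0.09 and −0.04, with 24.5% called higher and 23.3% lower in the first period and 27.1% and 25.7% in the second, while the members again gave 1 rise and 6 falls, then 5 rises and 1 fall. Since both periods share the middle arrays, a rise in the one that follows a fall in the other is not a separate result. In such biopsies, fewer cells of a type and less RNA per cell cannot be told apart.

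**Figure D1:**
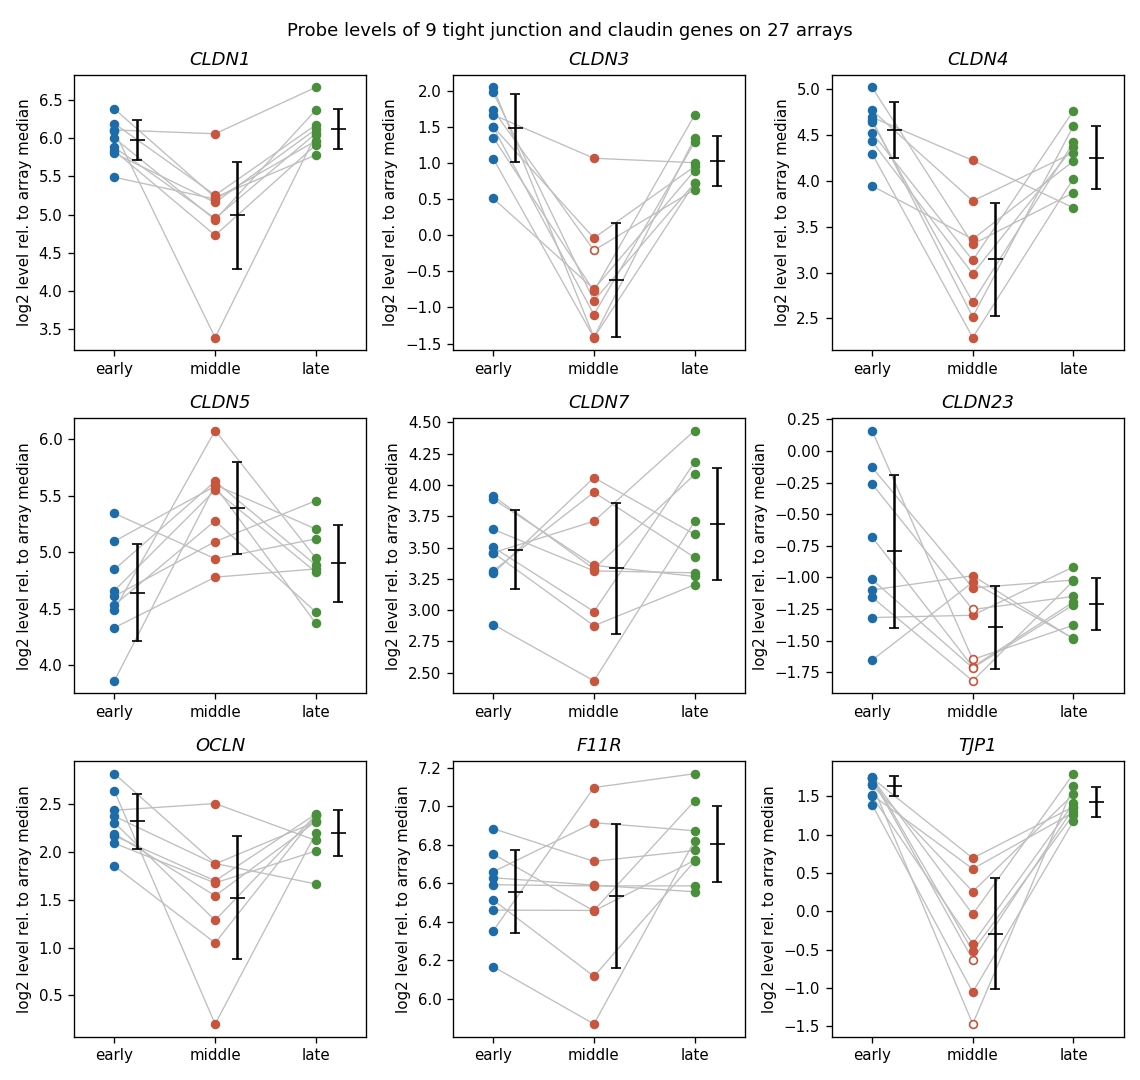
Log2 level relative to the array median (vertical axes, a different range in each panel) of each member at the early, middle and late stages. Points are arrays, open where the probe was not well above background, gray lines join the arrays of an animal, and black bars are the mean and SD of 9 arrays; all *TJP1* points of the middle stage, at most 0.70, lie below its early and late points, which are at least 1.18.

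*CLDN3*, which encodes a sealing claudin, had the largest fall of the 9 members with the scanner's own background subtraction, though not after normexp correction (−0.87, against −1.61 for *CLDN4*). Its level had a lowest, median and highest value of 0.51, 1.50 and 2.05 in early biopsies. At the middle stage these were −1.42, −0.77 and 1.06, and at the late stage 0.63, 0.95 and 1.66. The middle arrays were lower than the early array of the same animal in 9 of 9 cattle, but the ranges overlap because animal 8 stayed at 1.06. The change was −2.10 ± 0.25 (SE, n = 9), a 4.28-fold fall, with an adjusted *P* of 1.93e-06 in limma. The raw signal at the middle stage was 7.84 to 35.8 intensity units with a median of 9.66. At the early stage it was 49.1 to 184. With middle signals this low, the fold hangs on the background subtraction and is not a precise size. It was followed by a rise of 1.64 ± 0.25 in the second period, which 8 of 9 cattle showed (adjusted *P* = 1.42e-05, limma).

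*CLDN4*, another barrier-forming claudin and the chromosomal neighbor of *CLDN3*, moved the same way. Its lowest, median and highest levels were 3.95, 4.64 and 5.02 at the early stage and 2.29, 3.13 and 4.22 at the middle stage. At the late stage they were 3.71, 4.31 and 4.77. All 9 cattle were lower at the middle stage, and only the top of the middle range reached into the early one. *CLDN4* fell by 1.41 ± 0.21 on the log2 scale in the first period (2.66-fold, adjusted *P* = 1.89e-05) and rose by 1.11 ± 0.21 in the second, in 8 of 9 cattle (adjusted *P* = 1.26e-04, limma).

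*CLDN1*, needed for the barrier of stratified epithelia such as skin, had lowest, median and highest levels of 5.49, 6.00 and 6.38 in early biopsies. At the middle stage the values were 3.39, 5.16 and 6.06, and at the late stage 5.78, 6.06 and 6.66. Animal 4 gave the low value of 3.39 at the middle stage and animal 9 the high one of 6.06. *CLDN1* fell by 0.99 ± 0.20 in the first period (1.98-fold, lower in 9 of 9 cattle, adjusted *P* = 2.5e-04) and rose by 1.13 ± 0.20 in the second, in 9 of 9 cattle (adjusted *P* = 4.65e-05, limma).

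*CLDN23* and *CLDN7* changed less. *CLDN23*, a less studied claudin, had levels of −1.65, −1.02 and 0.16 (lowest, median, highest) early, −1.82, −1.30 and −0.99 at the middle stage and −1.49, −1.19 and −0.92 at the late stage. Its spread was widest at the early stage, with an SD of 0.61 against 0.33 and 0.21 at the later ones. It fell by 0.60 ± 0.20 in the first period, in 6 of 9 cattle (adjusted *P* = 0.0120, limma), and the second-period change was 0.19 ± 0.20 (adjusted *P* = 0.404). The first-period call was lost without the 3 dimmest middle arrays, those of cattle 4, 8 and 9 (−0.43, adjusted *P* = 0.116 in limma) and by the methods' t-test (adjusted *P* = 0.0638).

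*CLDN7*, found along the sides of epithelial cells as well as in the junction, had levels of 2.88, 3.46 and 3.91 in early biopsies. At the middle stage they were 2.44, 3.33 and 4.06, and at the late stage 3.20, 3.61 and 4.43. The 3 ranges overlap over most of their length. The change was −0.15 ± 0.19 in the first period (adjusted *P* = 0.501) and 0.36 ± 0.19 in the second (adjusted *P* = 0.104, limma). Without the 3 dimmest middle arrays the second-period change was 0.64, with an adjusted *P* of 0.00577 in limma, and without animal 4 or animal 9 alone it also passed (0.46 each, adjusted *P* = 0.0433 and 0.0436, limma).

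*CLDN5*, a claudin of blood vessel endothelium that epithelia also express, moved the other way. Its levels ran from 3.86 through a median of 4.61 to 5.34 early, from 4.78 through 5.55 to 6.08 at the middle stage and from 4.37 through 4.89 to 5.46 at the late stage. *CLDN5* rose by 0.75 ± 0.20 in the first period, in 8 of 9 cattle (1.68-fold, adjusted *P* = 0.00269), and fell by 0.49 ± 0.20 in the second, in 6 of 9 (adjusted *P* = 0.0328, limma). These changes stood at percentiles 67.8 and 42.7 of all probes, whose medians were 0.32 and −0.27, so that many other probes moved as far. Normexp correction took the first-period value to 0.07 (adjusted *P* = 0.852) and turned the second to 0.33 (adjusted *P* = 0.356, limma). The first-period call was also lost with the slide as a fixed block (1.49, adjusted *P* = 0.225, limma). The second-period call did not hold when animal 3, 4, 5, 7 or 8 was left out, with adjusted *P* of 0.0721 to 0.0877 in limma. It was also lost without the 3 dimmest middle arrays (−0.35, adjusted *P* = 0.200, limma) and by the methods' t-test (adjusted *P* = 0.0522).

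Endothelium markers went both ways beside *CLDN5*. Of 16 on the array, 6 were higher and 3 lower in the first period, near the 45.3% and 21.3% of all probes. *EGFL7*, secreted by endothelial cells, rose by 0.68 ± 0.16 (adjusted *P* = 9.82e-04), *ROBO4*, a receptor of endothelial cells, by 0.58 ± 0.12 (adjusted *P* = 4.53e-04) and *ESAM*, an adhesion molecule of endothelial junctions, by 0.60 ± 0.16 (adjusted *P* = 0.00299, limma). The receptor gene *FLT1* fell by 0.95 ± 0.18 (adjusted *P* = 1.31e-04), and *PLVAP*, which forms the diaphragms of vessel pores, fell by 0.88 ± 0.19 (adjusted *P* = 6.84e-04, limma). *VWF* and *TEK* did not pass the test, with changes of −0.12 ± 0.21 and −0.09 ± 0.17, and *CDH5*, a defining endothelial cadherin and 1 of the 6 called higher, was above background on no array. The summed linear level of the 16 markers, in multiples of the array median, ranged from 41.5 to 75.4 at the early, 40.1 to 98.0 at the middle and 38.2 to 65.6 at the late stage. Their part in the *CLDN5* result was not tested.

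Occludin (*OCLN*) had levels of 1.86, 2.31 and 2.82 (lowest, median, highest) at the early stage. They were 0.20, 1.68 and 2.51 at the middle stage and 1.67, 2.32 and 2.40 at the late stage. Animal 8 gave the lowest value of the middle stage and animal 4 the highest. The raw signal of animal 4 there was 45.8 units, below the stage median of 58.1. Its array had the lowest median intensity, 8.22 units, so the high level reflects the scaling. *OCLN* fell by 0.80 ± 0.21 in the first period, in 8 of 9 cattle (1.74-fold, adjusted *P* = 0.00269), and rose by 0.68 ± 0.21 in the second, in 7 of 9 (adjusted *P* = 0.00730, limma).

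*F11R*, whose protein belongs to the immunoglobulin superfamily, stayed within a narrow range. The levels were 6.17, 6.59 and 6.88 early, 5.87, 6.59 and 7.10 at the middle stage and 6.56, 6.77 and 7.17 at the late stage. Its first-period change was −0.02 ± 0.13 (adjusted *P* = 0.882) and its second-period change 0.27 ± 0.13 (adjusted *P* = 0.0637, limma). The sign of the first-period value turned under other scalings, to 0.04 with 75th percentile scaling. Without the 3 dimmest middle arrays, or without animal 9 alone, the second-period change passed the test at 0.38 and 0.30 (adjusted *P* = 0.0189 and 0.0345, limma).

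Among the members, only *TJP1* had middle-stage levels apart from those of both other stages. How many of all probes separate in this way was not counted, so the separation is not read as particular to *TJP1*. At the early stage its level lay between 1.40 and 1.75 with a median of 1.66, at the middle stage between −1.47 and 0.70 with a median of −0.42, and at the late stage between 1.18 and 1.80 with a median of 1.37. Every middle array was below every early and late array, with an SD of 0.13 in early and 0.72 in middle biopsies. *TJP1* fell by 1.92 ± 0.20 in the first period (3.79-fold, 9 of 9 cattle, adjusted *P* = 3.19e-07) and rose by 1.71 ± 0.20 in the second (9 of 9 cattle, adjusted *P* = 5.05e-07, limma). At the middle stage the raw signal went down to 2.91 intensity units, and the probe was not well above background on the arrays of animals 4 and 9.

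**Figure D2:**
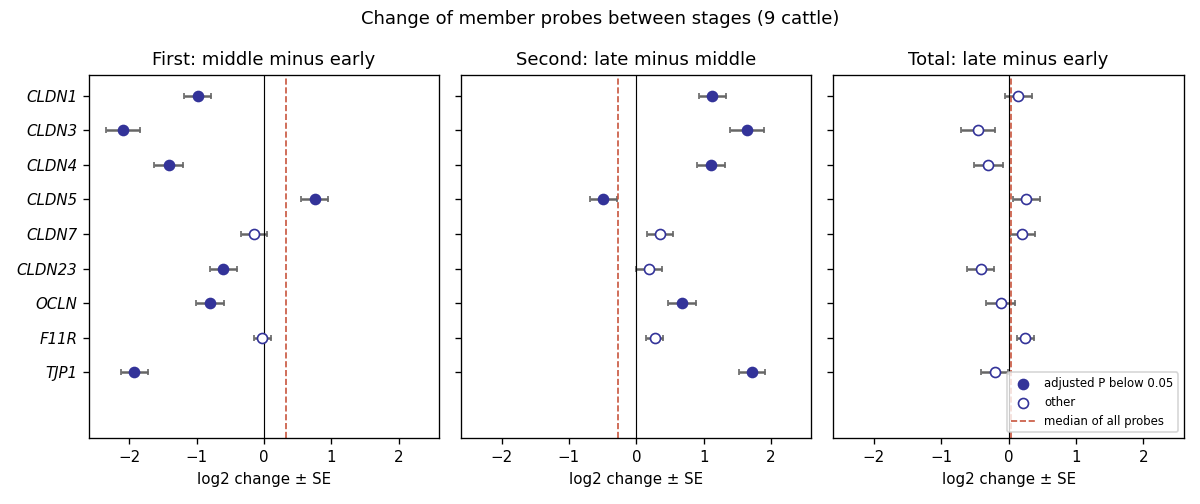
Log2 change and SE of each member in the 3 comparisons (9 cattle, limma), with filled points for an adjusted *P* below 0.05 and a dashed line at the median of all probes. In the first period *CLDN5* is the member to the right of the dashed line, and in the total period no point is filled.

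No member passed the test between the late and the early stage. Over the total period limma called 0 of 9 members, against 20.1% of all probes (11.2% higher and 8.93% lower). Only *CLDN23* had an unadjusted *P* below 0.05, with a change of −0.41 ± 0.20 (adjusted *P* = 0.152, limma). The methods' t-test, run on the same values and adjusted by Benjamini-Hochberg, called 1 member, *TJP1*, which was lower in 8 of 9 cattle by 0.21 on average (adjusted *P* = 0.0328). The largest difference was that of *CLDN3*, −0.46 ± 0.25, lower in 7 of 9 cattle (adjusted *P* = 0.218, limma). The median log2 change of the members was −0.12, beside 0.03 over all probes.

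Whether members changed by different amounts was tested on ratios. The log2 ratio of a pair of probes on the same array is free of the scaling of that array, and its change within each animal was tested by an exact two-sided sign-flip permutation test over the 9 cattle, which can go no lower than 0.0039, with adjustment over the 36 pairs. In the first period 24 of 36 ratios changed and in the second 15 of 36. How many pairs drawn from all probes change was not counted, so these numbers are not read as particular to the members. The pairs reuse the same members and are not independent. Over the total period 0 of 36 passed, with 9 at an unadjusted *P* below 0.05. With the scanner's background subtraction *CLDN5* rose relative to each of the 8 other members in the first period, by 0.77 against *F11R* (SD 0.55, 8 of 9 cattle, adjusted *P* = 0.016, exact test) up to 2.85 against *CLDN3* (SD 1.21, 9 of 9 cattle, adjusted *P* = 0.011, exact test), where normexp gave 0.71 (adjusted *P* = 0.031, exact test) and 0.94 (adjusted *P* = 0.078, exact test). After normexp the rise also failed the test against *CLDN23* (0.05, 5 of 9 cattle, adjusted *P* = 0.91), *CLDN7* (0.67, adjusted *P* = 0.066, exact test) and *OCLN* (0.83). It stayed called against *CLDN1*, *CLDN4*, *TJP1* and *F11R*. The ratio of *CLDN3* to *CLDN7* changed by −1.95 (SD 0.76, lower in 9 of 9 cattle, adjusted *P* = 0.011, exact test), but by −0.27 (adjusted *P* = 0.34, exact test) after normexp correction. The ratio of *CLDN4* to *F11R* changed by −1.39 (SD 0.38, lower in 9 of 9 cattle, adjusted *P* = 0.011, exact test), and by −0.97 (adjusted *P* = 0.031, exact test) after normexp; this pair was picked after both values were seen. The ratio of *CLDN3* to its neighbor *CLDN4* changed by −0.68 (SD 0.70, lower in 7 of 9 cattle, adjusted *P* = 0.043, exact test), and after normexp by 0.74, the opposite direction (adjusted *P* = 0.066, exact test). A ratio is thus free of array scaling and not of background correction, and of the 24 ratios called in the first period normexp left 10 called in the same direction and turned the sign of 2.

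Some members could not be separated by their ratios. The change of *CLDN3* relative to *TJP1* was −0.17 (SD 1.14, adjusted *P* = 0.68, exact test), that of *CLDN7* relative to *F11R* −0.13 (SD 0.44, adjusted *P* = 0.46, exact test) and that of *CLDN1* relative to *OCLN* −0.19 (SD 1.14, adjusted *P* = 0.68, exact test). In the second period *CLDN5* fell relative to 7 of the 8 others, the exception being *CLDN7* (−0.84, SD 0.84, adjusted *P* = 0.066, exact test). After normexp *CLDN5* rose relative to *CLDN23* by 0.46 (adjusted *P* = 0.038, exact test). The ratio of *CLDN3* to *CLDN5* was then no longer called (0.29, adjusted *P* = 0.32, exact test). *TJP1* rose relative to *F11R* by 1.44 (SD 0.90, 9 of 9 cattle, adjusted *P* = 0.020, exact test), against −0.26 after normexp (adjusted *P* = 0.23, exact test). Of the 15 ratios called in the second period, normexp left 9 called in the same direction and turned the sign of 4. Without the 3 dimmest middle arrays 24 ratios passed in the first period and 0 in the second, where 17 had an unadjusted *P* below 0.05 and the 6 cattle left allow no *P* under 0.031.

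**Figure D3:**
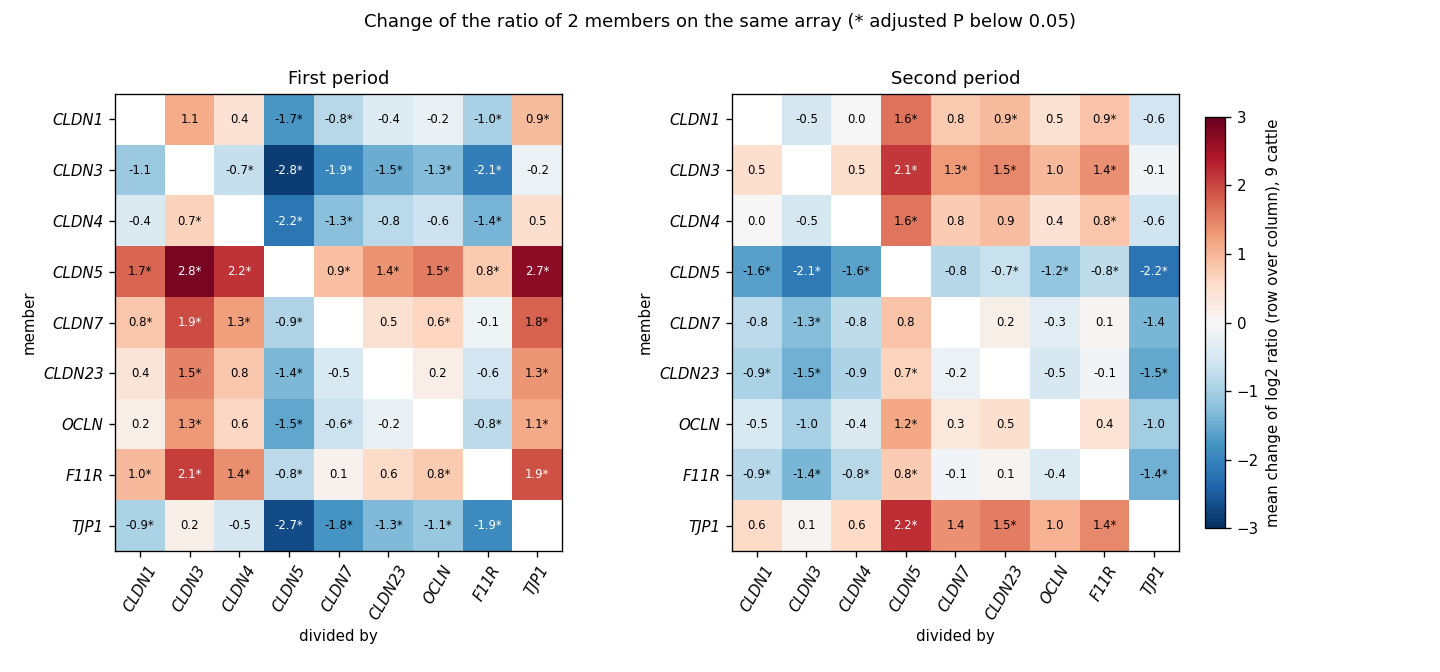
Mean change of the log2 ratio of the row's member over the column's member on the same array, in the first and second periods (9 cattle, color and number), with stars for an adjusted *P* below 0.05. Values are those with the scanner's background subtraction. The *CLDN5* row is starred against all 8 others in the first period, and 24 of 36 pairs are starred there against 15 in the second.

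The first-period calls rested on arrays of different slides. With the slide as a fixed block beside the animal, 2 members were called, *CLDN3* (−3.83, adjusted *P* = 0.0178) and *TJP1* (−3.41, adjusted *P* = 0.0206, limma), while *OCLN* turned to 1.20 (adjusted *P* = 0.283). Of all probes 6.76% were then called higher and 1.5% lower. In animals 1 to 7 slide and stage are the same split. The fixed-block fit therefore separates slide from stage only through the arrays of animals 8 and 9, and its values hang on them. In animal 8 the first-period change was −2.44 for *OCLN*, the lowest of all cattle, and −0.60 for *CLDN3*, the smallest fall. Within slide 2 the early array of animal 9 stood alone against 7 middle arrays and is assumed to vary as they do. There limma called 7 of 15002 probes and 0 members, of which 5 had an unadjusted *P* below 0.05. The values there were −2.64 for *CLDN3*, −2.12 for *TJP1*, −1.80 for *CLDN4*, −1.47 for *CLDN23* and 1.52 for *CLDN5*, which are these 5, and −1.31 for *CLDN1*. With the slide as a random block 6 members were called in the first period, without *OCLN* (−0.71, adjusted *P* = 0.0800, limma), and 4 in the second, without *OCLN* and *CLDN5* (adjusted *P* = 0.106 and 0.170). Of all probes 32.7% were then called higher and 12.8% lower in the first period, and 16.2% and 33.9% in the second. In the second and total periods no slide held both stages, and slide and stage cannot be told apart there. The late arrays were also scanned on other days than all early and middle arrays, so scan day is confounded in the same way. The middle arrays of animals 8 and 9 were scanned on another day than the rest of that stage.

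**Figure D4:**
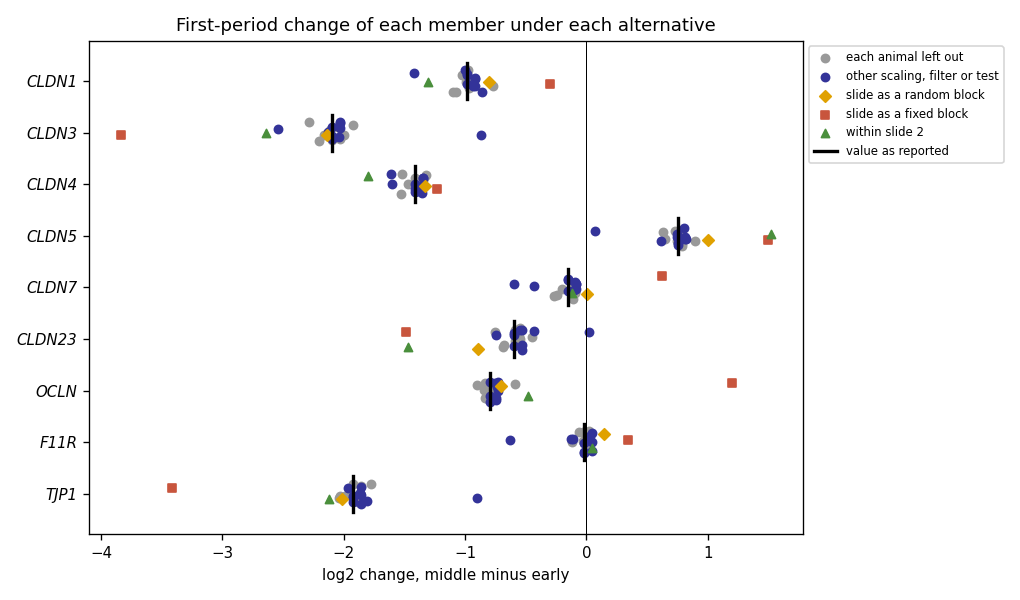
First-period log2 change of each member as reported (black line) and under each alternative (points, spread vertically to be seen). The fixed slide block (squares) lies farthest from the line for *CLDN3* at −3.83 and for *OCLN* at 1.20.

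Background correction moved the size and the order of these changes. With normexp in place of the scanner's own subtraction, the first-period values were −0.87 for *CLDN3* and −0.90 for *TJP1*, and both stayed past the test. *CLDN4* came to −1.61 and *CLDN1* to −1.42, so that the order of the falls turned over, with *CLDN3* behind *CLDN4*, *CLDN1* and *TJP1*. *CLDN23* came to 0.02 (adjusted *P* = 0.800) and, like *CLDN5*, was no longer called, and *CLDN7* was called at −0.60 (adjusted *P* = 0.0366, limma). In the second period the rises of *CLDN3* and *TJP1* shrank to 0.62 and 0.81, and those of *CLDN4* and *CLDN1* grew to 1.60 and 1.78. All of these stayed called. In that period *CLDN7* and *F11R* were then called at 0.95 and 1.07 (adjusted *P* = 0.00199 and 0.00469, limma).

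Other tight junction membrane genes were mostly dim. Of 29 on the array, 25 were called in the first period, 22 higher and 3 lower, beside 45.3% and 21.3% of all probes. Of the 29, 17 missed the call above background on some arrays of both stages. Those 17 gave 15 of the rises and none of the falls. Among the brighter 12, 7 were higher and 3 lower. *CXADR*, a virus receptor and junction adhesion molecule, rose by 0.84 ± 0.14 (adjusted *P* = 4.36e-05) and fell by 1.33 ± 0.14 in the second period (adjusted *P* = 1.51e-07, limma). *CLDN12*, a claudin that lacks the usual scaffold-binding end, fell by 2.09 ± 0.22 (adjusted *P* = 4.92e-07) and rose by 2.54 ± 0.22 (adjusted *P* = 1.74e-08, limma), with 1 of 9 middle arrays well above background.

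Scaffold and polarity genes were called about as often as all probes. Of 24 on the array, 12 were higher and 5 lower in the first period, near the 45.3% and 21.3% of all probes. In the second period 6 were higher and 11 lower, near the 27% and 44.6% of all probes. *CGN*, which encodes cingulin of the junction plaque, rose by 1.05 ± 0.18 (adjusted *P* = 5.42e-05) and then fell by 1.75 ± 0.18 (adjusted *P* = 1.04e-07, limma). *PRKCZ*, an atypical protein kinase C of the polarity complex, fell by 1.52 ± 0.22 (adjusted *P* = 1.23e-05) and then rose by 1.63 ± 0.22 (adjusted *P* = 3.05e-06, limma), with 1 of 9 middle arrays well above background.

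Adherens junction genes, which hold the belt below the tight junction, gave 2 rises and 5 falls among 14 in the first period and 7 rises and 2 falls in the second. Of all probes 45.3% were called higher and 21.3% lower in the first period, and 27% and 44.6% in the second. *PVRL2*, which encodes nectin-2, fell by 1.50 ± 0.11 (adjusted *P* = 6.52e-09) and rose by 1.76 ± 0.11 (adjusted *P* = 2.28e-10), and *MLLT4*, which encodes the nectin-binding afadin, rose by 0.99 ± 0.20 (adjusted *P* = 3.02e-04) and fell by 1.26 ± 0.20 (adjusted *P* = 2.09e-05, limma). Over the 3 lists of other junction genes, 49 of 67 were called in the first period, 36 higher and 13 lower, against 66.5% of all probes. In the second period 49 were called, 16 higher and 33 lower, against 71.5% of all probes. Under quantile normalization these genes were 17 higher and 14 lower, beside 24.5% and 23.3% of all probes. They were then 15 higher and 19 lower, beside 27.1% and 25.7%. With scaling by the array median, the median log2 change of these genes was 0.44 in the first period. Dim probes, below background on some arrays of both stages, gave 19 of the 36 rises and none of the falls, while each member was well above background on 9 of 9 early arrays. When arrays were centred and fitted anew on the probes that cleared background throughout at least 1 stage, 47 of these genes were left, 21 called higher and 13 lower. Of all probes kept, 35.2% were then higher and 29.2% lower. Over the total period 12 of the 67 were called, 5 higher and 7 lower, beside 11.2% and 8.93% of all probes. Among the 12 were the polarity gene *PARD6G* (−1.08 ± 0.17, adjusted *P* = 1.72e-04) and *RAB13* (0.56 ± 0.11, adjusted *P* = 0.00141, limma). Others were *CDH3* (0.92 ± 0.16, adjusted *P* = 5.6e-04), *CDH1* (−0.64 ± 0.13, adjusted *P* = 0.00137) and *CLDN25* (−0.67 ± 0.13, adjusted *P* = 9.78e-04, limma). *CDH1* and *CDH3* encode E-cadherin and P-cadherin.

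Desmosome genes, which anchor keratin filaments, gave 4 rises and 4 falls among 15 in the first period, with *PKP4* highest at 0.86 ± 0.16 (adjusted *P* = 1.68e-04) and *PPL* lowest at −1.52 ± 0.15 (adjusted *P* = 2.2e-07, limma). In the second period 4 were higher and 7 lower, and over the total period limma called 0 of 15, against 20.1% of all probes. For this list and those that follow, the shares of all probes were 45.3% higher and 21.3% lower in the first period. In the second period they were 27% and 44.6%. Regulators of junctional actomyosin gave 3 rises and 6 falls among 14 in the first period. The myosin gene *MYH9* rose by 1.60 ± 0.15 (adjusted *P* = 1.33e-07) and the small GTPase gene *RHOA* fell by 1.60 ± 0.19 (adjusted *P* = 1.56e-06, limma), and in the second period *MYH9* fell by 2.68 ± 0.15 and *RHOA* rose by 1.96 ± 0.19 (adjusted *P* = 7.77e-11 and 5.6e-08). Of 19 transcription factors of epithelia, 5 were higher and 6 lower, among them *GRHL3*, a grainyhead factor of epidermal barrier formation (−1.99 ± 0.20, adjusted *P* = 2.59e-07), and *SNAI1*, a repressor of epithelial genes (0.87 ± 0.13, adjusted *P* = 1.56e-05, limma).

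Some cell type markers moved at the middle stage together with the members. The summed linear level of 16 stratified epithelium markers, in multiples of the array median, ranged over 3858 to 5200 in early, 1196 to 4802 in middle and 4476 to 5423 in late biopsies. Of these markers 3 were higher and 6 lower in the first period, beside 45.3% and 21.3% of all probes. *IVL*, an envelope protein gene of upper cell layers, changed by −1.99 ± 0.19 (adjusted *P* = 1.58e-07) and *COL17A1*, of the basal layer's anchorage, by 1.30 ± 0.19 (adjusted *P* = 1.41e-05, limma). The other falls were *KRT14* (−1.12 ± 0.15, adjusted *P* = 6.71e-06), *KRT5* (−0.56 ± 0.21, adjusted *P* = 0.0285, limma), *KRT6A*, *KRT17* and *TGM1*. The other rises were *ITGA6* (1.07 ± 0.15, adjusted *P* = 7.16e-06, limma) and *KRT4*, above background on no array. A shift between cell layers was not tested. The sum over 7 red blood cell markers ranged over 40.3 to 70.0 in early, 107 to 201 in middle and 46.4 to 92.7 in late biopsies, and *HBA* rose by 1.22 ± 0.13 in the first period (adjusted *P* = 7.09e-07, limma). Fibroblast markers gave 3 rises and 2 falls among 12, smooth muscle markers 4 rises among 7 and leukocyte markers 6 rises and 2 falls among 17, beside the 45.3% and 21.3% of all probes. Of the 6 leukocyte rises 4 came from dim probes, and the median summed level of these markers was 68.2 at the early and 73.1 at the middle stage. Their part in the members' changes was not tested.

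Arrays that were high for a member within their stage were high for some others. The deviations of *CLDN3* and *CLDN4* from their stage means had a Pearson correlation of 0.73 over the 27 arrays, and of 0.92, 0.63 and 0.92 over the 9 arrays of the early, middle and late stages. *CLDN7* and *F11R* gave 0.73 over all arrays and 0.76, 0.84 and 0.53 within the stages. *OCLN* and *TJP1* gave −0.64, and −0.37, −0.79 and 0.46 within the stages, negative within the early and middle stages and positive within the late one. The points of a pair share an array, its scaling and the animal, the arrays of an animal are not independent, and these values are descriptions.

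**Figure D5:**
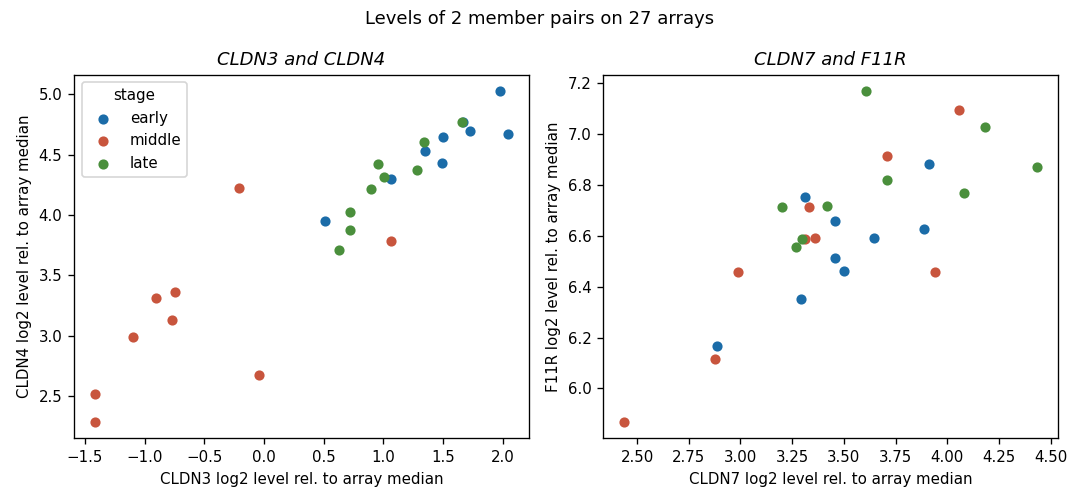
Log2 levels relative to the array median of *CLDN4* against *CLDN3* and of *F11R* against *CLDN7*, 1 point for each of 27 arrays, colored by stage. Within the early and the late stage *CLDN4* climbs with *CLDN3* (r = 0.92 in each).

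Genes with the most similar course over the 27 arrays were sought among 6705 probes well above background on all of them, for the 6 members that were so too. For *CLDN4* they were *AQP2* (r = 0.89), *AQP3* (r = 0.88), both water channel genes, and *R3HDM4* (r = 0.87). *CLDN1* was closest to *SMG8* (r = 0.95), *TSG101* and *AZI2* (r = 0.94 each). *CLDN5* was closest to *AGRN* (r = 0.89), *HSBP1* (r = 0.86) and *ZKSCAN5* (r = 0.84), and *OCLN* to *SORT1* (r = 0.84), *UGT1A6* (r = 0.79) and *ANKRD13A* (r = 0.78). *CLDN7* was closest to *ASL* and to its fellow member *F11R* (r = 0.76 each), then to *TMEM141* (r = 0.74), and *F11R* to *MARCH6* (r = 0.83), *PNPLA2* (r = 0.82) and *CCDC126* (r = 0.81). Stage differences and array brightness are part of each of these correlations.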

How the data were processed

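RNA of 27 RE biopsies (9 cattle at 3 stages) was extracted with TRIzol, labeled with cyanine 3 and hybridized to a custom one-color bovine array. The authors deposited the intensity of each spot, made by Feature Extraction (9.5 in the submitters' processing notes, 11.0.1.1 in the output) with the local background subtracted, and 0 or 1 flags for spots well above background, saturated or outlying. They also deposited a table of log2 values, equal to log2 intensity minus about the 75th percentile of each array, which served as an alternative. The extraction text of the labels names other tissues than the tissue labels and methods, which give RE.

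From 15110 spots other than controls, log2 intensity minus the array median was fitted in limma 3.58.1 (R 4.3.3) with stage and animal, outlier spots missing, and *P* values were adjusted over 15008 probes. The same 9 cattle pair the stages; deviations of arrays of the same animal had a mean correlation of 0.158, against −0.020 between cattle. Pair ratios were tested in Python 3.11.15. Procedures were tested on simulated data. Depth is not defined for arrays, whose number limits the precision.

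The members and gene lists were chosen with earlier results of these data known. Genes other than members were taken from these, per list and comparison the called gene with the largest rise and with the largest fall among probes well above background on all 9 arrays of at least 1 of the 2 stages, endothelium markers beside *CLDN5*, and the 3 probes with the most similar course. Further stratified epithelium markers were named beside *IVL* and *COL17A1*. The lists were other junction membrane, plaque and polarity, adherens junction, desmosome and actomyosin genes, epithelial transcription factors and cell type markers. Alternatives were other scalings (75th percentile, quantile, median of bright probes), normexp with an offset of 50, removal of dim probes, outlier spots kept, the deposited log2 table, the fit without the animal, slides as random or as fixed blocks, the arrays of slide 2, the t-test of the methods and each animal left out. Leaving out the 3 middle arrays with under 60% of probes well above background was chosen after seeing the data.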

Additional observations from a re-analysis of the deposited data

Results flagged for a closer look

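In 1 of 27 groups of 9 arrays (9 members at 3 stages) a member had an array far from the others. At the middle stage the *CLDN1* level of animal 4 was 3.39, and the next lowest was 4.73, a gap of 0.502 of the whole range. About 1 in 20 such groups is expected to be singled out by chance. Without animal 4, the number of members called in the first period was 7, as with all cattle.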

How the results depend on the processing

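Counts and medians moved little under most settings, and for the following the cause was not tested. Without the animal block (the pairing), limma called 7, 6 and 0 members in the 3 comparisons, and 48, 47 and 11 other junction genes, so that the block changed no member's call. With 1 animal left out at a time, the members called were 7 in the first period, 5 to 8 in the second and 0 in the total period. Their median log2 change was then −0.844 to −0.592, 0.511 to 0.809 and −0.202 to 0.009, other junction genes called were 46 to 49, 47 to 52 and 8 to 13, and member pairs 21 to 26, 13 to 14 and 0. Under a fixed slide block 2 members and 8 other junction genes were called in the first period with a median of −0.303 for the members, and within slide 2, with 8 arrays, 0 and 0 with a median of −1.308. Other junction genes called were 31 under quantile normalization and 32 under a random slide block in the first period. In the total period they were 4 after normexp, 0 with the slide as a random block (7 at an unadjusted *P* below 0.05), 21 by the methods' t-test and 19 without the 3 dimmest middle arrays, and the t-test called 1 member. Member pairs were 12 after normexp in the first period and 0 without the 3 dimmest arrays in the second.

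Single members turned sign where their change was small or the slide entered. *F11R* in the first period came to 0.0428 with 75th percentile scaling, 0.0315 with the median of bright probes, 0.0443 without dim probes, 0.0425 in the deposited log2 table, 0.149 and 0.339 under a random and a fixed slide block, 0.046 within slide 2, and 0.0237, 0.011 and 0.0114 without animal 2, 4 or 6 (range with 1 animal left out, −0.119 to 0.0237). *CLDN7* in the first period came to 0.0031 and 0.624 with the random and the fixed slide block, *OCLN* to 1.20 with the fixed one and *CLDN23* to 0.0176 after normexp. In the second period *CLDN23* came to −0.0004 with 75th percentile scaling, −0.0017 with the median of bright probes and −0.132 after normexp (adjusted *P* = 0.0479, limma), and *CLDN5* to 0.329 after normexp. In the total period *CLDN1* came to −0.0271 under quantile normalization, and *OCLN* to 0.0062 with the random slide block and 0.0088 without animal 7. Of 558 values of single members under the alternatives, 504 kept direction and side of the threshold, 24 lost and 9 gained it, and 21 turned. Signal over background at the middle stage limits *CLDN3*, *CLDN23* and *TJP1* most.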
